A study of Mus musculus with 12 samples.

Results

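The 9 libraries of cells without Fip200, Atg5 or Atg7 were taken as 1 autophagy-deficient group and compared with the 3 control libraries, gene by gene, to describe the response common to the loss of these 3 genes. All 12 libraries of the series entered the comparison, and the groups were set by genotype alone. All were made from 562 cells, a spontaneously immortalized line from the cutaneous vascular tumors of Tsc1 f/f;Scl-Cre mice (C57BL/6) in which tamoxifen had induced the Cre recombinase, which is active in endothelial cells. The deletion of Tsc1 is therefore shared by every group, the control included. The control was labelled wildtype for the autophagy genes and, by the study's methods, carried an sgRNA against EGFP. KO cells were made with LentiCRISPR v2 and puromycin selection, with 1 sgRNA each for Atg5 and Atg7 and a pair of sgRNAs for Fip200. The study speaks of 2 clones of Fip200 KO cells, and the labels do not say which clone or culture a sample came from, so the 3 samples of a group need not stand for separate editing events.

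Autophagy encloses cytoplasmic material in a double membrane and delivers it to lysosomes. FIP200, encoded by Rb1cc1, belongs to the ULK1 complex that starts the process, while ATG7 and ATG5 act later, in the conjugation of LC3 and its relatives to membrane lipid. Loss of any of the 3 blocks canonical autophagy, and each protein has further functions of its own, so a response to all 3 losses is the part that they share. The study asked how autophagy bears on the growth of tumor endothelial cells with an active mTORC1 pathway.

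Levels are given as RPKM, reads scaled to the length of the gene and to the reads of the library. A fold change is the difference of the mean log2(RPKM + 0.5), the KO libraries minus control, and is understated for genes near 0. To be called, a gene had to reach an adjusted p of 0.1 or less in limma's moderated test and to differ at least 2-fold, a log2 fold change beyond 1 in either direction. Reads per library ranged from 17266926 to 23629730. All 9 endothelial markers were detected, with a summed level of 1090 to 2600 RPKM in control and 1830 to 2860 in the KO libraries. Of the markers of lymphatic endothelium, the tissue given in the labels, Flt4 lay between 31.7 and 101 RPKM over the 12 libraries, whereas Prox1, the defining transcription factor, reached no more than 5.79. The 12 fibroblast and mural markers in the tables summed to 18.9 to 82.2 RPKM in control and 16.4 to 361 in the KO libraries, mostly Thy1, and 6 of them, Col1a1, Cspg4, Des, Myh11, Postn and Rgs5, stayed under 1. The fibroblast gene Dcn stood at 0.125, 56.9 and 15.3 RPKM in control replicates 1, 2 and 3 and below 1 in every KO library. Of 6 leukocyte markers, Ptprc, Csf1r and Adgre1 stayed under 1 RPKM, with a sum of 107 to 134 in control, 285 in Fip200 KO replicate 1 and 23.4 to 31.6 in the other 8 KO libraries, all 8 below control. Xist, the RNA of the inactive X chromosome, was at 12.7, 0.537 and 0.0178 RPKM in control, at 0.0468 in Atg7 KO replicate 2 and at 36.2 to 65.4 in the other 8 KO libraries. The libraries of 1 group thus differed in ways the genotype does not give, and the part of these differences in the results was not tested.

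The RNA of the targeted genes was read first. Rb1cc1 was at 6.43, 8.28 and 7.73 RPKM in control, between 5.18 and 6.92 in 8 KO libraries and at 2.06 in Fip200 KO replicate 3. Atg5 was at 14.2, 11.1 and 10.6 RPKM in control and at 8.53, 15.6 and 12.6 in the Atg5 KO libraries, so these groups overlapped. Atg7 was at 18.4, 25.0 and 19.8 RPKM in control and at 5.40, 2.64 and 8.34 in the Atg7 KO libraries, all below control, while Fip200 KO replicate 1 had 38.3. A frameshift can leave the RNA of a gene in place, so the RNA level of Rb1cc1 and Atg5 did not check the labels. Over the 9 KO libraries, none of the 3 genes was called (adjusted p = 0.331, 0.319 and 0.145 for Rb1cc1, Atg5 and Atg7).

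More genes were called lower than higher in the KO libraries. The test covered 12233 genes, of which 708 (5.79%) were called lower and 296 (2.42%) higher, 1004 in all (8.21%), so that 70.5% of the called genes were lower. At the same adjusted p without the fold threshold the directions were nearly even, with 1731 genes lower (14.2%) and 1667 higher (13.6%). The median log2 fold change of all tested genes was 0.031. All 9 KO libraries lay below all 3 control libraries for 890 genes (7.28%) and above them for 736 (6.02%). Both criteria held for 405 lower and 150 higher genes. Most changes were moderate, with 531 lower and 262 higher genes between a log2 fold change of 1 and 2 in size, whereas 17 genes fell and 3 rose by 4 or more. In bulk RNA, fewer cells of a type and less RNA per cell cannot be told apart.

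**Figure D1:**
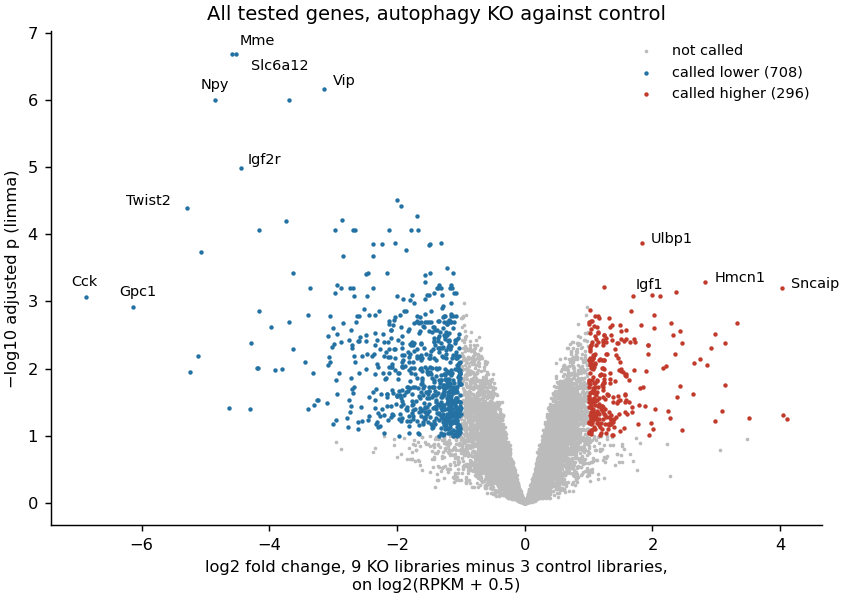
Log2 fold change (x axis, 9 KO libraries minus 3 control libraries on log2(RPKM + 0.5)) against −log10 of limma's adjusted p (y axis) for 12233 tested genes. Each point is a gene, 708 are called lower and 296 higher, and the points for Mme, Slc6a12, Vip and Gpc1 are genes below 0.5 RPKM in all 9 KO libraries.

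The control libraries differed from each other, and this bears on the lower genes in particular. Among the 708 genes called lower, control replicate 2 had the highest control level in 392, replicate 3 in 191 and replicate 1 in 125. The 3 control libraries lay within 2-fold of each other for 390 of the 708 lower genes (55.1%) and for 136 of the 296 higher genes. With control replicate 2 left out, 534 genes were called, 381 lower and 153 higher. With control replicate 3 left out, 630 genes were called, 441 lower and 189 higher. The filter on low values asked for 0.5 RPKM in any 3 libraries, which the control libraries alone could meet: 55 tested genes were below 0.5 RPKM in all 9 KO libraries, and 48 of them were called lower. Such genes had to differ to be tested at all, so their adjusted p values are given as descriptions. Of the genes named below by rule, 8 are of this kind, namely Mme, Slc6a12, Vip, Gpc1, Lifr, Mx1, Lamb3 and Itgb4. Itgb7, a list member counted below, is of this kind too. On the other side, 36 genes called higher were below 0.5 RPKM in all 3 control libraries, among them Hmcn1, Tfec, Col1a2 and Peg10, for which the same holds.

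Vip, Npy and Cck, genes of peptide hormones, were called lower. Vip, which encodes the vasodilator vasoactive intestinal peptide, was at 5.51, 5.87 and 7.59 RPKM in control and at 0.108 to 0.478 in the KO libraries, with a median of 0.290. Npy, encoding neuropeptide Y, was at 16.3, 11.8 and 26.4 RPKM in control and at 0 to 0.775 in the KO libraries, with a median of 0. Cck, encoding cholecystokinin, was at 59.6, 611 and 271 RPKM in control and at 0 to 14.6 in the KO libraries, with a median of 0.827. Every KO library was below every control library in the 3, although Cck reached 14.6 RPKM in 1 of them. Their log2 fold changes were −3.14 for Vip (standard error 0.183, adjusted p = 6.75e-07), −4.85 for Npy (standard error 0.303, adjusted p = 9.91e-07) and −6.88 for Cck (standard error 0.940, adjusted p = 0.000852). Cpe, which encodes the carboxypeptidase that trims prohormones, was at 724, 629 and 787 RPKM in control and at 102 to 391 in the KO libraries (log2 fold change −1.65, adjusted p = 0.00683). The neuropeptide list held 19 genes, of which 12 were in the tables and 5 passed the filter on low values, Vip through the control libraries alone. These 4 of the 5 were called lower.

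Mme and Slc6a12 passed the filter through the control libraries alone (adjusted p = 2.04e-07 for both). Mme encodes neprilysin, a cell-surface enzyme that degrades peptides, and was at 18.8, 13.8 and 17.0 RPKM in control and at 0.0145 to 0.429 in the KO libraries, with a median of 0.253. Slc6a12 encodes a betaine and GABA transporter and was at 12.4, 20.8 and 10.1 RPKM in control and at 0 to 0.409 in the KO libraries, with a median of 0.105. Their control levels differed by 1.36 and 2.07 times and all 9 KO libraries were below 0.5 RPKM, with log2 fold changes of −4.58 (standard error 0.225) and −4.52 (standard error 0.232). With 0.1 in place of 0.5 added to the RPKM, these became −5.90 and −6.07, because the size of a fold change near 0 depends on that value.

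Igf2r, the receptor that carries mannose 6-phosphate enzymes to lysosomes and clears IGF2, was at 10.7, 28.3 and 19.2 RPKM in control and at 0.0459 to 0.882 in the KO libraries, with a median of 0.285. No KO library came near the lowest control (log2 fold change −4.45, standard error 0.338, adjusted p = 1.01e-05). Cdkn1c, encoding the cell cycle inhibitor p57, was at 92.3, 37.5 and 47.7 RPKM in control and at 0.0491 to 4.29 in the KO libraries, with a median of 1.30 (log2 fold change −5.08, adjusted p = 0.000184). Twist2, a basic helix-loop-helix transcription factor of mesenchymal cells, was at 7.03, 62.7 and 27.4 RPKM in control and at most at 0.504 in the KO libraries (log2 fold change −5.29, adjusted p = 4.07e-05). For Twist2 the groups were separate although the control levels were not alike.

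The remaining genes of the 10 lowest, picked among called genes with no overlap and a mean of 2 RPKM or more, had uneven controls. Gpc1, encoding the surface proteoglycan glypican-1, was at 2.32, 266 and 62.0 RPKM in control and at 0 to 0.0547 in the KO libraries, with a median of 0 (log2 fold change −6.13, adjusted p = 0.0012). Serpine2, encoding the protease inhibitor nexin-1, was at 28.5, 331 and 148 RPKM in control and at 0.945 to 12.7 in the KO libraries (log2 fold change −4.30, adjusted p = 0.00409). Ptgs1, encoding cyclooxygenase-1, was at 57.0, 326 and 186 RPKM in control and at 0.631 to 38.1 in the KO libraries (log2 fold change −4.18, adjusted p = 0.00991). The groups did not overlap in any of these, and in each control replicate 2 had the highest level. The log2 fold change of Gpc1 was −8.23 with 0.1 added to the RPKM. With control replicate 2 left out, those of Cck, Serpine2 and Ptgs1 were −6.12, −3.52 and −3.63, and with control replicate 1 left out they were −7.80, −5.27 and −4.88.

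**Figure D2:**
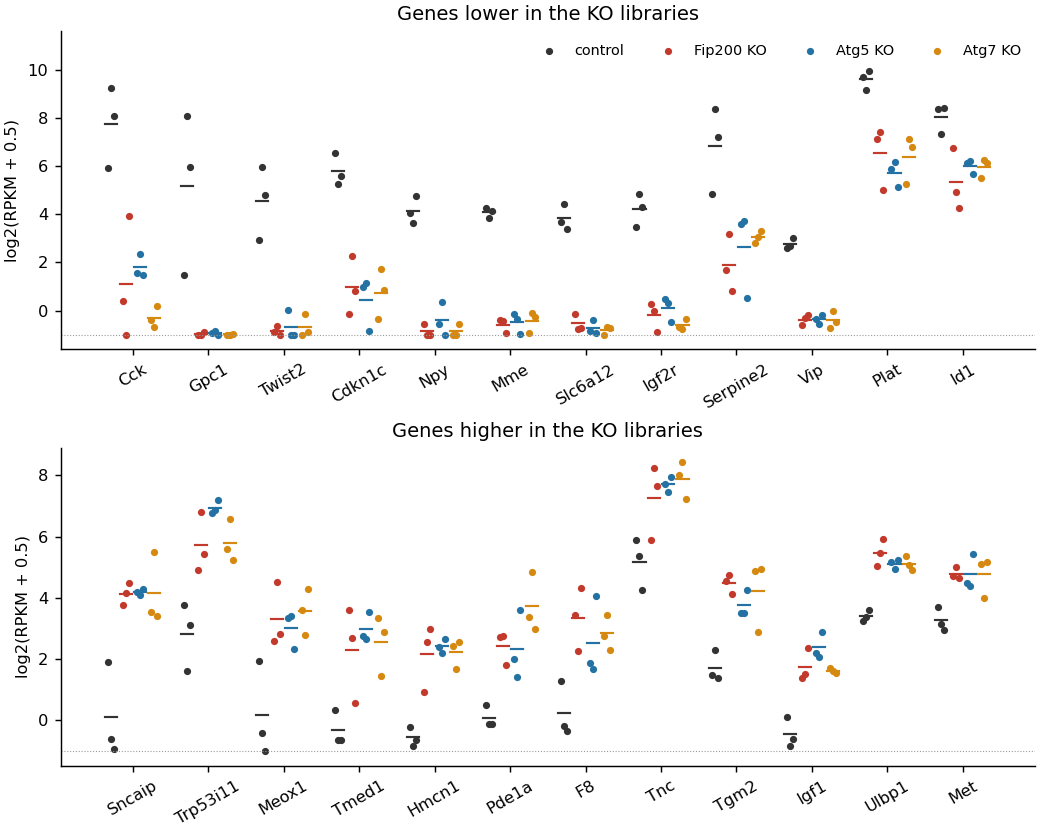
Levels of 24 genes, log2(RPKM + 0.5) on the y axis, with 1 point per library, coloured by group, a bar at each group mean and a dotted line at an RPKM of 0. The control points of Mme, Vip and Ulbp1 lie close together, those of Gpc1, Cck and Sncaip are spread widely, and most of the genes were chosen because their KO points lie on 1 side of control.

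Among called genes that did not overlap and averaged 2 RPKM or more, the 10 highest had varied functions. Sncaip, encoding the synuclein-binding protein synphilin-1, was at 3.23, 0.159 and 0.0254 RPKM in control and at 10.0 to 44.9 in the KO libraries, with a median of 17.2. All 9 KO libraries were above the highest control (log2 fold change 4.03, standard error 0.521, adjusted p = 0.000634). Trp53i11 was at 13.0, 2.56 and 8.12 RPKM in control and at 29.5 to 144 in the KO libraries (log2 fold change 3.32, adjusted p = 0.0021). Meox1, a homeobox transcription factor, was at 3.30, 0.249 and 0 RPKM in control and at 4.48 to 22.6 in the KO libraries (log2 fold change 3.13, adjusted p = 0.00409). In these 3 genes control replicate 1 had the highest control level, and it was still below every KO library.

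Hmcn1, encoding the matrix protein hemicentin-1, was at 0.360, 0.067 and 0.147 RPKM in control and at 1.39 to 7.47 in the KO libraries, with a median of 4.94 (log2 fold change 2.83, adjusted p = 0.000508). Tnc, encoding the matrix glycoprotein tenascin-C, was at 58.0, 40.3 and 18.6 RPKM in control and at 59.2 to 343 in the KO libraries, with a median of 211 (log2 fold change 2.46, adjusted p = 0.00409). The lowest KO library, Fip200 KO replicate 1, was only just above the highest control. Tgm2, encoding the crosslinking enzyme transglutaminase 2, rose from 2.13 to 4.45 RPKM in control to 6.87 to 29.9 (log2 fold change 2.43). F8, encoding coagulation factor VIII, which endothelial cells secrete, rose from 0.297 to 1.93 RPKM to 2.67 to 19.3 (log2 fold change 2.65). Tmed1, of the p24 family of cargo receptors, rose by a log2 fold change of 2.91, and Pde1a, a cyclic nucleotide phosphodiesterase, by 2.74. Tfec, of the same transcription factor family as TFEB, had a log2 fold change of 2.38, and its call was lost without control replicate 2 (adjusted p = 0.111) or control replicate 3 (adjusted p = 0.107).

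Among higher genes, the smallest adjusted p was that of Ulbp1, a stress-induced ligand of the NKG2D receptor of natural killer cells. It was at 8.96, 9.91 and 11.5 RPKM in control and at 29.3 to 59.8 in the KO libraries, with a median of 35.3 (log2 fold change 1.83, standard error 0.191, adjusted p = 0.000133). Igf1, encoding insulin-like growth factor 1, was at 0.570, 0.0668 and 0.154 RPKM in control and at 2.09 to 6.95 in the KO libraries (log2 fold change 2.36, adjusted p = 0.000728). C1ql3, a secreted protein related to complement C1q, was at 0.562 to 1.63 RPKM in control and at 4.07 to 9.64 in the KO libraries (log2 fold change 1.99, adjusted p = 0.000811). These 3 were chosen among genes without overlap.

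The response was then compared among the 3 KO cells. In the F test among the means of the 3 KO cells, limma called 0 of 12233 genes (0.00%, smallest adjusted p = 0.33), with 873 genes (7.14%) at an unadjusted p under 0.05. Of the 1004 genes called against control, 9.06% had such an unadjusted p. The result rested on Fip200 KO replicate 3, without which 399 genes were called. A p that misses the threshold does not show that the KO cells were alike. The library names carry the prefix FY in all Fip200 KO, Yang in all Atg7 KO and JG or Yang in Atg5 KO libraries. A difference between Fip200 and Atg7 KO cells is therefore also a difference between prefixes. Against the same 3 control libraries in the fit of 4 groups, 450 genes (3.68%) were called lower and 158 (1.29%) higher in Fip200 KO cells, 652 (5.33%) and 399 (3.26%) in Atg5 KO cells, and 760 (6.21%) and 350 (2.86%) in Atg7 KO cells.

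The most even genes were picked for the smallest range of log2 fold change among the 3 cells, so their near equality follows from that choice. The median range was 0.58 over all genes called lower and 0.52 over those called higher. Met, the receptor of hepatocyte growth factor, had log2 fold changes of 1.531, 1.511 and 1.502 in Fip200, Atg5 and Atg7 KO cells, from 12.4, 8.35 and 7.22 RPKM in control to 15.5 to 42.7 in the KO libraries. S100a16, a calcium-binding protein, had values of 1.59, 1.56 and 1.53 in Fip200, Atg5 and Atg7 KO cells. Sncaip, described above, was among these too, with values that differed by less than 0.1 among the cells. Rpusd4, a mitochondrial pseudouridine synthase, and Ppp2r1b, a scaffold subunit of phosphatase 2A, lay between 0.99 and 1.06 in all 3 cells. Rpusd4 and Ppp2r1b are at the fold threshold and dropped below it without control replicate 2 (log2 fold changes of 0.995 and 0.933). Both also fell short of the threshold without Atg7 KO replicate 1 (0.958 and 0.957), Rpusd4 without control replicate 3 (0.956) or Fip200 KO replicate 1 (0.975), and Ppp2r1b without Atg7 KO replicate 3 (0.999).

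Of the lower genes, Tom1, which acts in endosomal sorting, was at 38.4, 39.9 and 42.9 RPKM in control and at 10.5 to 16.9 in the KO libraries, with log2 fold changes of −1.510, −1.503 and −1.448. Usp38, a deubiquitinase, had values of −1.33, −1.36 and −1.29. Sestd1 and Tmem161a were also among the most even lower genes, with log2 fold changes of −1.08 and −1.16 over the 9 libraries. Both fell short of a 2-fold change without control replicate 2 (−0.897 and −0.989). Tom1, Usp38 and Tmem161a lie on chromosome 8, and Sestd1 does not.

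The called genes with the smallest p among the KO cells were Oas3, Lgals3 and Alox5ap. Oas3, an interferon-induced enzyme, was at 22.8, 16.8 and 10.4 RPKM in control, at 1.61 to 3.17 in Fip200 KO, at 1.90 to 6.75 in Atg5 KO and at 10.5 to 17.8 in Atg7 KO cells (F test, unadjusted p = 0.000287). The Atg7 KO libraries thus lay within the control range. Lgals3, encoding galectin-3, which marks damaged lysosomes, was at 187, 303 and 223 RPKM in control and lowest in Atg5 KO cells, at 57.1 to 70.4. Alox5ap, which serves leukotriene synthesis, was at 2.85 to 5.10 RPKM in control, at 1.89 to 3.83 in Fip200 KO and at 0.365 to 1.30 in the Atg5 and Atg7 KO libraries. The calls of these 3 against control were lost without control replicate 1 (adjusted p of 0.251 for Oas3, 0.115 for Lgals3 and 0.111 for Alox5ap) and without control replicate 2 (0.246, 0.307 and 0.157). Those of Oas3 and Lgals3 were also lost without control replicate 3 (0.156 and 0.195) and in further fits that left out a KO library.

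**Figure D3:**
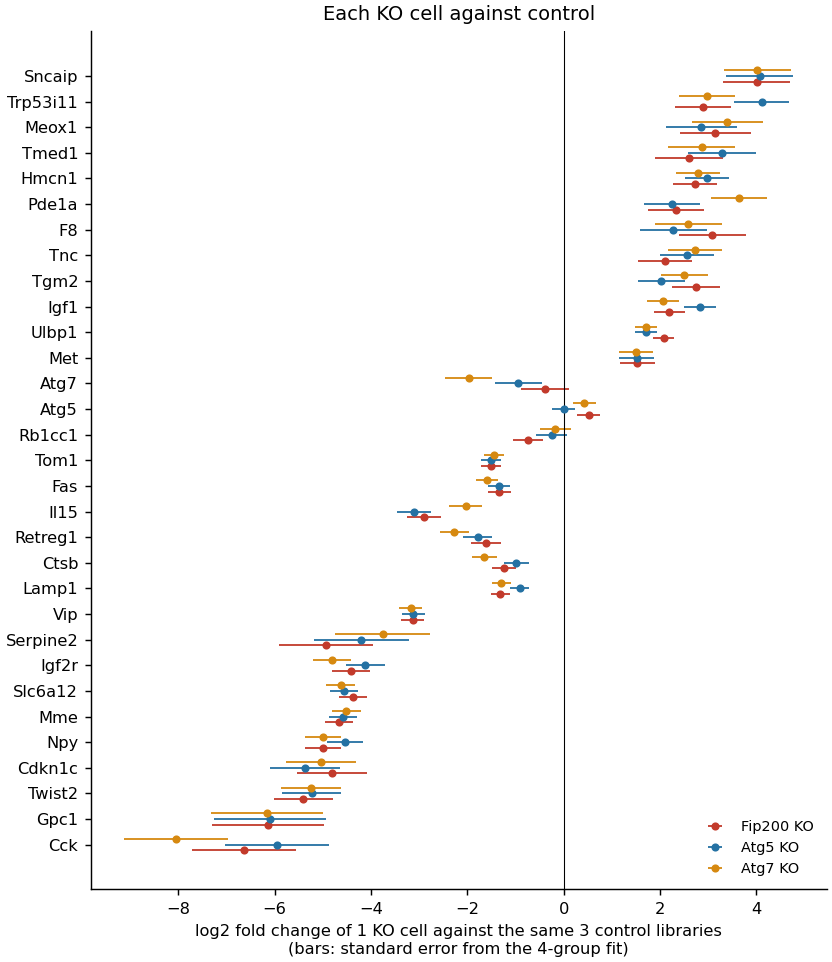
Log2 fold change of each KO cell against the same 3 control libraries (x axis, bars are standard errors of the 4-group fit) for 31 genes on the y axis. The 3 points of Sncaip, Met, Vip, Mme and Tom1 nearly coincide, while Atg7 fell furthest in Atg7 KO cells, at a log2 fold change of −1.97. Sncaip, Met and Tom1 were picked for an even change.

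Gene lists of known function were counted next. Their shares are read against the 5.79% of all tested genes called lower and the 2.42% called higher, and no list was tested as a set. The core autophagy genes changed little. Of 12 genes of the initiation and PI3-kinase complexes, limma called 0, with a median log2 fold change of −0.03. Ulk1, the kinase of the FIP200 complex, was at 12.9, 15.3 and 14.6 RPKM in control and at 6.01 to 10.0 in the KO libraries, below control throughout but short of a 2-fold change (log2 fold change −0.74, adjusted p = 0.0116). Of 21 genes of LC3 conjugation and autophagosome growth, 1 was called lower, Map1lc3a, an LC3 gene (log2 fold change −1.12, adjusted p = 0.0199), and without control replicate 2 it was not (adjusted p = 0.141). The receptors that bind cargo gave 2 lower genes of 16. Retreg1, the receptor for endoplasmic reticulum also known as FAM134B, was at 14.9, 15.0 and 22.7 RPKM in control and at 2.78 to 7.12 in the KO libraries (log2 fold change −1.89, adjusted p = 0.00141). Optn, encoding optineurin, was at 39.2 to 45.6 RPKM in control and at 7.69 to 34.9 in the KO libraries (log2 fold change −1.26, adjusted p = 0.0197).

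Lysosomal genes were lower where they changed. Of 26 tested genes of the lysosome and TFEB list, 5 (Lamp1, Npc2, Ctsb, Gla and Ctsl) were called lower and 0 higher, with 11 lower and 0 higher if the fold threshold is dropped, where 14.2% of all genes were lower and 13.6% higher. The median log2 fold change of the list was −0.50. Lamp1, a major protein of the lysosomal membrane, was at 935, 1003 and 1076 RPKM in control and at 321 to 574 in the KO libraries. Ctsb, encoding the protease cathepsin B, was at 392, 524 and 396 RPKM in control and at 117 to 284 in the KO libraries. Npc2, which moves cholesterol out of lysosomes, was at 117, 196 and 175 RPKM in control and at 48.2 to 90.0 in the KO libraries. The groups were separate in all 3, with log2 fold changes of −1.17, −1.29 and −1.18 (adjusted p of 0.00196, 0.00498 and 0.00382). The median of the list was −0.43, −0.41 and −0.60 in Fip200, Atg5 and Atg7 KO cells.

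Sterol synthesis showed a comparable direction with less even support. Of 22 tested genes of cholesterol synthesis, 8 were called lower and 0 higher, with a median log2 fold change of −0.70. Cyp51, the lanosterol demethylase, was at 16.4, 25.7 and 18.1 RPKM in control and at 3.39 to 14.5 in the KO libraries (log2 fold change −1.50, adjusted p = 0.00706). Msmo1, Nsdhl and Pmvk, further enzymes of the pathway, had log2 fold changes of −1.59, −1.18 and −1.08. The median of the list was −0.34 in Fip200, −0.68 in Atg5 and −1.27 in Atg7 KO cells. Without control replicate 2 only 1 of the 22 was called and without control replicate 3 only 3, with medians of −0.63 and −0.83. The calls lost without control replicate 2 included Msmo1 (adjusted p = 0.106), Nsdhl (0.125) and Pmvk (0.104), and that of Nsdhl was also lost without control replicate 3 (0.109) and that of Pmvk without Atg7 KO replicate 2 (log2 fold change −0.983).

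Genes of immune signalling were called lower more often than higher. Of 27 tested genes of NF-kB feedback, cytokines and chemokines, 10 were called lower and 1 higher, with a median log2 fold change of −0.88. Il15, encoding the cytokine interleukin-15, was at 19.1, 24.3 and 26.1 RPKM in control and at 2.13 to 10.8 in the KO libraries, with a median of 2.88 (log2 fold change −2.68, adjusted p = 0.000834). Fas, the death receptor, was at 1.44, 1.64 and 2.67 RPKM in control and at 0.183 to 0.539 in the KO libraries (log2 fold change −1.42, adjusted p = 0.000745). Traf1 and Tnfaip2, both induced by NF-kB, had log2 fold changes of −1.62 and −1.45 (adjusted p of 0.00423 and 0.00286). These 4 genes had no overlap between the groups. The higher gene was the chemokine Cxcl12, at 0.0807 to 1.07 RPKM in control and 0.948 to 18.2 in the KO libraries, which overlapped. Its call was lost without control replicate 2 (adjusted p = 0.101) or control replicate 3 (0.19), and with the library-name prefix as a covariate (0.21). The count of lower genes was 5 without control replicate 2 and 6 without control replicate 3, with medians of −0.51 and −0.74.

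In the JAK-STAT3 list, 6 of 18 tested genes were called lower and 0 higher (median log2 fold change −0.38). Lifr, the receptor of leukemia inhibitory factor, was at 0.745, 1.65 and 1.70 RPKM in control and at 0.0504 to 0.271 in the KO libraries (log2 fold change −1.56, adjusted p = 0.000519). Jak3, a kinase of cytokine receptors, was at 15.5, 16.7 and 26.3 RPKM in control and at 2.16 to 8.86 in the KO libraries (log2 fold change −1.93, adjusted p = 0.00633). Both were below control in all 9 KO libraries. Il6 and Cebpd, an interleukin and a transcription factor of the acute response, had log2 fold changes of −2.35 and −1.66, and their calls were lost without control replicate 2 (adjusted p of 0.251 and 0.384) or control replicate 3 (0.142 and 0.227). That of Cebpd was also lost without Atg7 KO replicate 3 (0.103). With either of control replicates 2 and 3 left out, 1 of 17 tested members was called. Lifr was not tested there, since it fails the filter once a control library is left out.

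Presentation of antigen by MHC class I gave 6 lower genes of 15 and 0 higher, with a median log2 fold change of −1.03. Nlrc5, the transactivator of these genes, was at 8.06, 11.9 and 7.86 RPKM in control and at 0.486 to 5.19 in the KO libraries (log2 fold change −1.91, adjusted p = 0.00737). B2m, the shared light chain, was at 1693, 2722 and 1868 RPKM in control and at 352 to 1321 in the KO libraries (log2 fold change −1.20, adjusted p = 0.0303). Tapbp, which loads peptides, and the heavy chain H2-D1 had log2 fold changes of −1.13 and −1.01. Without control replicate 2, 2 members were called, and B2m (adjusted p = 0.161) and H2-D1 (0.103) were not. Tapbp fell short without control replicate 1 (log2 fold change −0.978), and H2-D1 without Fip200 KO replicate 2 (−0.951) or Fip200 KO replicate 3 (−0.940). The median of the list was −1.59 in Fip200, −0.90 in Atg5 and −0.62 in Atg7 KO cells, and the difference among the cells was not called for any member.

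Of 29 interferon-stimulated genes, 4 were called lower and 0 higher, with a median of −0.07. With the library-name prefix (FY, JG or Yang) as a covariate, 7 were called lower and the median was −0.62, whereas without the Fip200 KO libraries 2 were lower and 3 higher and the median was 0.25. The list medians of the 3 KO cells were −0.84 in Fip200, −0.03 in Atg5 and 0.57 in Atg7 KO cells. These cells also differ in library-name prefix. Mx1, an antiviral GTPase, was at 0.669, 0.820 and 0.770 RPKM in control and at 0.0339 to 0.120 in the KO libraries (log2 fold change −1.15, adjusted p = 0.000565). Ifi27l2a was at 40.3, 39.0 and 36.6 RPKM in control and at 0.880 to 36.7 in the KO libraries, with a median of 3.67, and Zbp1, a sensor of nucleic acids, had a log2 fold change of −1.27. Each of the control libraries left out in turn removed both calls, with adjusted p of 0.126, 0.170 and 0.155 for Ifi27l2a and of 0.105, 0.248 and 0.107 for Zbp1 without control replicates 1, 2 and 3. Mx1 fails the filter on low values once a control library is left out, so 28 members were tested there, of which limma called 0 without control replicate 1 or 2 and 1 without control replicate 3.

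Immediate early genes, which answer growth factors within minutes, and the AP-1 transcription factors gave 6 lower genes of 21 and 0 higher (median −0.49). Jund, an AP-1 subunit, was at 110, 221 and 149 RPKM in control and at 31.6 to 81.9 in the KO libraries (log2 fold change −1.63, adjusted p = 0.00205). Junb, another subunit, was at 48.7, 164 and 189 RPKM in control and at 22.8 to 72.5 in the KO libraries, and its call (log2 fold change −1.57) was lost without control replicate 2 (adjusted p = 0.113) or control replicate 3 (0.118). Nr4a1 and Nr4a2, orphan nuclear receptors, had log2 fold changes of −2.30 and −1.01. Nr4a2 fell short of the threshold without control replicate 2 (−0.990), control replicate 3 (−0.835), Atg7 KO replicate 1 (−0.942) or Atg7 KO replicate 2 (−0.967). Klf2 and Ier2 were the others, both lost without control replicate 3 (adjusted p of 0.102 and 0.135), and 4 of the 6, namely Junb, Jund, Klf2 and Ier2, lie on chromosome 8. The count without control replicate 3 was 2. The median of the list was −0.78, −0.32 and −0.34 without control replicates 1, 2 and 3.

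Because AP-1 subunits were among the lower genes, the letters of an AP-1 site were looked up in the 250 bases before the first listed RefSeq start of each gene (build GRCm38.p6). The letters TGACTCA, or TGAGTCA on the other strand, stood in 29 of 522 promoters of lower genes (5.56%), in 8 of 226 of higher genes (3.54%) and in 303 of all 9699 promoters found for tested genes (3.12%). A match is a description and not a bound site. The letters stood before the named higher genes Met and Mrpl33 as well, and before the lower genes Il6, Car9 and Oas3, none of which is shown. Some stretches around these letters are shown for lower genes named here, with the AP-1 letters in capitals and the gene's strand read 5′ to 3′.
Fas, chr19:34290437-34290465, + strand: ctgtgcagtggTGAGTCAgtgggtttccc
Osgin1, chr8:119437039-119437067, + strand: ggggcccctgcTGACTCAcgcttatgaaa
Msmo1, chr8:64733688-64733716, - strand: cttcgttgactTGAGTCAcacgctgccgg
Usp38, chr8:81015107-81015135, - strand: gagtggccgcgTGACTCActccgtgcctc
The letters TATAAA stood in 8.62% of the promoters of lower genes, in 9.29% of those of higher genes and in 6.14% of all. CCGGAAGT, a site of ETS factors, stood in 2.11%, 3.54% and 6.35%. TGACGTCA, the site of the cAMP response, stood in 1.72%, 1.77% and 2.80%, and TCACGTGA, a site of TFEB, in 1.53%, 1.33% and 1.65%. The kappa-B motif of NF-kB was found in 2 promoters of lower genes (0.383%), in 0 of higher genes and in 15 of all (0.155%). Each motif was searched on both strands.

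The extracellular matrix changed in both directions. Of 21 proteoglycans and secreted matrix ligands, 7 were called lower and 1, Tnc, higher. Sdc1, encoding syndecan-1, was at 4.64, 52.0 and 16.7 RPKM in control and at 0.0488 to 2.31 in the KO libraries (log2 fold change −3.98, adjusted p = 0.00242). Gpc6, encoding glypican-6, had a log2 fold change of −2.35 (adjusted p = 0.0029). The median of the list, −0.68, became 0.03 without control replicate 2, where 4 of 20 tested genes were called lower. Gpc1 was not tested there, since it fails the filter. Dcn, given above, and Spp1, which encodes osteopontin, were among the 7. The call of Dcn was lost without control replicate 2 (adjusted p = 0.194) or 3 (0.141). Spp1 was named because the study centers on it, and was at 59.4, 1370 and 127 RPKM in control and at 5.79 to 53.2 in the KO libraries (log2 fold change −3.91, adjusted p = 0.0104). Without control replicate 2 its log2 fold change was −2.59 (adjusted p = 0.0767), and without control replicate 1 it was −4.84 (adjusted p = 0.00785).

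Of 20 matrix proteases and their inhibitors, 9 were called lower and 0 higher (median −0.94). Plat, the tissue plasminogen activator of endothelial cells, was at 835, 572 and 997 RPKM in control and at 31.9 to 171 in the KO libraries, with a median of 71.4 (log2 fold change −3.39, adjusted p = 0.00158). Mmp11, a metalloproteinase, was at 4.84 to 12.6 RPKM in control and at 0.930 to 3.35 in the KO libraries (log2 fold change −1.75, adjusted p = 0.00439). Slpi, an inhibitor of leukocyte proteases, was at 3.61, 310 and 278 RPKM in control and at 0 to 9.77 in the KO libraries, which overlapped with control replicate 1. The control levels of Plat differed by 1.74 times, whereas those of Serpine2 differed by 11.61 times and those of Slpi by 85.9 times. The count of lower genes was 4 with the library-name prefix as a covariate, 5 without control replicate 3 and 6 without control replicate 2.

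Collagens gave 4 lower and 1 higher of 15 tested. Col4a6, a basement membrane chain, was at 3.48, 7.97 and 5.87 RPKM in control and at 0.0480 to 3.36 in the KO libraries (log2 fold change −2.71, adjusted p = 0.00439). Col4a5 and Col5a3 had log2 fold changes of −1.25 and −2.44, and their calls were lost without control replicate 2 (adjusted p of 0.104 and 0.161), that of Col4a5 also without control replicates 1 (0.111) and 3 (0.145). Without control replicate 2, 1 collagen was called lower. Col1a2, the higher one, stayed at or below 0.0202 RPKM in control and reached 1.54 in the KO libraries, a change at low level (log2 fold change 1.04) that was not called without any 1 control library (adjusted p of 0.117, 0.165 and 0.160) and fell short of 2-fold without Atg5 KO replicate 3 (0.963) or Atg7 KO replicate 1 (0.960) or 3 (0.917).

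Among 21 laminins and integrins, 5 were called lower and 2 higher. Lama4, the laminin chain of endothelial basement membrane, was at 12.9 to 29.8 RPKM in control and at 35.2 to 112 in the KO libraries (log2 fold change 2.02, adjusted p = 0.00246). Itga4, the integrin chain that binds fibronectin and VCAM1, was at 1.13 to 2.60 RPKM in control and at 3.53 to 14.3 in the KO libraries (log2 fold change 1.93, adjusted p = 0.00606). Lamb3 and Itgb4, chains typical of epithelial adhesion, were at low level in control, at most 0.972 and 2.27 RPKM, and fell to at most 0.188 and 0.431. Their log2 fold changes were −1.16 and −1.47 (adjusted p of 0.00107 and 0.00141). The summed level of 5 epithelial markers in the tables was also lower, 7.91 to 11.3 RPKM in control and 0.613 to 6.42 in the KO libraries, and its part in these results was not tested. Of 15 members that reached 2 RPKM in 3 libraries, 1 was called lower and 2 higher. In the fit without control replicate 2, 2 of 18 tested members were lower. Lamb3, Itgb4 and Itgb7, another of the 5 lower genes, were not tested there, for the same reason as Lifr.

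**Figure D4:**
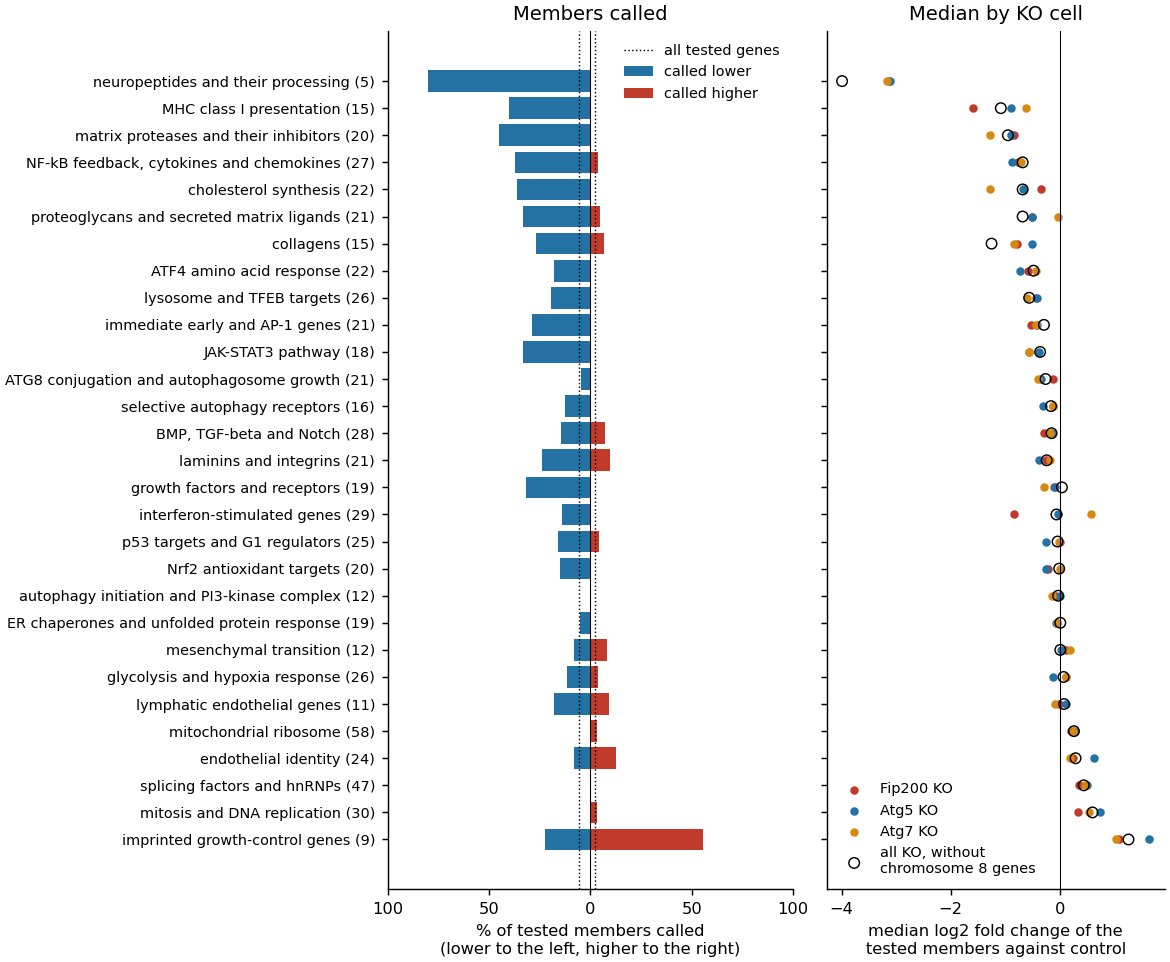
Left, percent of the tested members of each of 29 gene lists called lower (blue) or higher (red), with the number tested in brackets and dotted lines at the 5.79% and 2.42% of all genes. Right, the median log2 fold change of the members in each KO cell against the same control, with circles for all KO libraries without genes of chromosome 8; the 3 cells are furthest apart for interferon-stimulated genes, with −0.84, −0.03 and 0.57.

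Growth factors and their receptors gave 6 lower genes of 19 tested and 0 higher, with a median of −0.09. Fgfr1, a fibroblast growth factor receptor, was at 97.1, 118 and 98.9 RPKM in control and at 18.8 to 94.9 in the KO libraries (log2 fold change −1.49, adjusted p = 0.0116). Pdgfc and Pdgfa, platelet-derived growth factors, had log2 fold changes of −1.98 and −2.003, and overlapped with control replicate 1. Vegfa, the main ligand of endothelial growth, was at 21.6, 37.4 and 20.9 RPKM in control and at 5.74 to 20.6 in the KO libraries (log2 fold change −1.26). Without control replicate 2 the calls of Vegfa (adjusted p = 0.139) and Pdgfa (0.142) were lost and 2 of 17 tested members were called, and that of Pdgfa was lost without control replicate 3 too (0.131).

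In the BMP, TGF-beta and Notch list, 4 of 28 genes were called lower and 2, Bmp6 and Tgfb2, higher. Id1, a target of BMP signalling that holds back differentiation, was at 326, 160 and 345 RPKM in control and at 18.9 to 107 in the KO libraries (log2 fold change −2.27, adjusted p = 0.00516). Its relative Id2 was at 30.5, 30.2 and 31.2 RPKM in control and at 0.547 to 11.5 in the KO libraries, with a median of 6.01 (log2 fold change −2.65, adjusted p = 0.0079). Both were separate from control. Grem1, a secreted BMP antagonist, was at 28.6, 411 and 143 RPKM in control and at 0.435 to 36.2 in the KO libraries (log2 fold change −5.11, adjusted p = 0.0066), and Tgfb3 had a log2 fold change of −1.62. Of the higher calls, 1, that of Bmp6, was made without control replicate 2, and 0 by limma without control replicate 3 or with the library-name prefix as a covariate.

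Of 24 tested endothelial identity genes, 2 were called lower and 3 higher, with a median of 0.32. Without control replicate 3, or with that prefix as a covariate, limma called 0 lower, and without control replicate 2 it called 0 lower and 1 higher. The median became −0.05 without control replicate 2. Robo4, an endothelial guidance receptor, was at 36.0, 12.2 and 24.2 RPKM in control and at 32.5 to 79.6 in the KO libraries (log2 fold change 1.48, adjusted p = 0.0079). Cdh5, the junction protein VE-cadherin, was at 310, 116 and 271 RPKM in control and at 295 to 805 in the KO libraries (log2 fold change 1.10). Cldn5, a claudin of tight junctions, had 12.1 RPKM in control replicate 1, 0.299 and 0.143 in the other two, and 1.59 to 67.6 in the KO libraries. The receptor Flt1 was at 16.1 to 34.1 RPKM in control and at 0.145 to 15.9 in the KO libraries (log2 fold change −2.73). Without control replicate 2 the calls of Cdh5 (adjusted p = 0.202) and Cldn5 (0.260) were lost, and without control replicate 3 those of Cldn5 (0.263) and Flt1 (0.149). Flt1 was not called without control replicate 2 either, at an adjusted p just over the threshold, and Cdh5 fell short without Atg7 KO replicate 2 (log2 fold change 0.995).

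Of 11 lymphatic genes, Vegfc and Foxc2 were called lower and Lyve1, a hyaluronan receptor, higher. Foxc2, a transcription factor of lymphatic valves, was at 15.3, 15.0 and 15.9 RPKM in control and at 0.136 to 9.30 in the KO libraries (log2 fold change −2.45, adjusted p = 0.0505), and its call was lost without any 1 control library (adjusted p of 0.114, 0.158 and 0.155). Vegfc, the lymphatic growth factor, had a log2 fold change of −2.35 and Lyve1 of 1.16, and both calls were lost without control replicate 2 (adjusted p of 0.162 and 0.135) or control replicate 3 (0.128 and 0.206). Of 12 mesenchymal transition genes, Twist2 was lower and Tagln, a smooth muscle actin-binding protein, higher, the latter lost without control replicate 2 (adjusted p = 0.240) or control replicate 3 (0.140).

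Cell cycle genes mostly stayed below the fold threshold. Of 30 genes of mitosis and DNA replication, 1 was called higher and 0 lower, with a median log2 fold change of 0.56 and 9 genes higher by the adjusted p alone. Tyms, the thymidylate synthase, was at 6.46, 5.95 and 9.57 RPKM in control and at 10.8 to 25.3 in the KO libraries (log2 fold change 1.22, adjusted p = 0.00747). Ccnd1, encoding cyclin D1, was at 71.1, 38.8 and 46.6 RPKM in control and at 72.5 to 227 in the KO libraries (log2 fold change 1.47, adjusted p = 0.0104), and fell just short of 2-fold with the library-name prefix as a covariate (0.989). The p53 and G1 list held 4 lower genes of 25, among them Cdkn1c, the stress cytokine Gdf15 (log2 fold change −2.15, adjusted p = 0.00407) and Cdkn1a, the inhibitor p21. Cdkn1a was at 69.2, 53.9 and 92.4 RPKM in control and at 6.02 to 59.1 in the KO libraries (log2 fold change −1.77), and its call was lost without control replicate 1 (adjusted p = 0.102), control replicate 2 (0.113) or control replicate 3 (0.174). Each of these fits, and the fit with the library-name prefix as a covariate, called 2 lower genes of the list.

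Genes of RNA processing and mitochondrial translation had small positive medians, and few of them were called. Of 47 splicing factors and hnRNPs, limma called 0, yet 24 were higher and 0 lower by the adjusted p alone, where 13.6% of all genes were higher, and the median was 0.45. Hnrnpf was at 157, 135 and 160 RPKM in control and at 172 to 282 in the KO libraries (log2 fold change 0.62, adjusted p = 0.0119). Of 58 mitochondrial ribosomal proteins, 2 were called higher, and 17 were higher and 2 lower by the adjusted p alone, with a median of 0.26. Mrpl33 was at 56.1, 32.3 and 33.0 RPKM in control and at 65.6 to 157 in the KO libraries (log2 fold change 1.27, adjusted p = 0.00602). Mrpl16 (log2 fold change 1.04) fell below a 2-fold change without control replicate 3 (0.783) and came out just under it without Atg7 KO replicate 2.

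Among the stress responses, 3 lists were counted. Of 20 Nrf2 targets, 3 were called lower and 0 higher (median −0.04). Hmox1, heme oxygenase 1, was at 2011, 1871 and 1419 RPKM in control and at 494 to 1301 in the KO libraries (log2 fold change −1.21, adjusted p = 0.0111), and fell just short of 2-fold with the library-name prefix as a covariate (−0.987). Osgin1 had a log2 fold change of −1.44, and Slc7a11, the cystine transporter, of −1.44. Of 22 ATF4 targets, 4 were called lower (median −0.51), Nupr1, a chromatin protein induced by stress, at 242, 524 and 222 RPKM in control and at 39.8 to 190 in the KO libraries (log2 fold change −1.79, adjusted p = 0.0116), with Ddit4, Chac1 and Slc7a11. The fit without control replicate 2 lost the calls of Osgin1 (adjusted p = 0.106), Slc7a11 (0.227), Ddit4 (0.152) and Chac1 (0.367), leaving 1 gene in each list. In that fit the median of the ATF4 list was −0.33. Slc7a11 was also lost without control replicate 1 (0.130), control replicate 3 (0.198) or Atg7 KO replicate 3 (0.104), and Chac1 without control replicate 3 (0.158). Of 19 genes of the unfolded protein response, 1 was called, Herpud1 (log2 fold change −1.43, adjusted p = 0.00353), which fell just short of a 2-fold change without control replicate 2 (−0.998).

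Of 26 glycolysis and hypoxia genes, 3 were called lower and 1 higher (median 0.03). Adm, encoding the vessel-active peptide adrenomedullin, was at 71.2, 56.1 and 73.6 RPKM in control and at 118 to 334 in the KO libraries (log2 fold change 1.64, adjusted p = 0.00398). Pfkp, a glycolytic kinase, and Car9, a carbonic anhydrase, were lower with Vegfa, at log2 fold changes of −1.27 and −1.05. Pfkp was not called without control replicate 2 (adjusted p = 0.136) or 3 (0.162). Car9 was not called without control replicate 2 (0.413), control replicate 3 (0.182) or any of 5 KO libraries. With control replicate 2 left out, 0 genes of the list were called lower by limma.

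Imprinted genes are expressed from 1 parental copy. Of 9 tested genes of this list, Igf2r and Cdkn1c were called lower and 5, namely Ndn, Nnat, Sgce, Mest and Peg10, higher, and the median was 1.26. Ndn, which restrains growth in neurons, was at 14.3, 0.666 and 1.32 RPKM in control and at 9.18 to 43.9 in the KO libraries (log2 fold change 2.86, adjusted p = 0.00898). Nnat was at 1.83, 1.59 and 1.37 RPKM in control and at 1.90 to 9.72 in the KO libraries (log2 fold change 1.26), and its call was lost without control replicate 2 (adjusted p = 0.136) or control replicate 3 (0.148). With either of those control libraries left out, 1 higher gene was called, and the 2 lower genes remained called in every fit that left out a library. With all libraries kept, limma-voom on recovered reads called 2 higher genes.

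Many of the lower genes named above lay on chromosome 8. Of 664 tested genes of that chromosome, 109 (16.4%) were called lower and 11 (1.66%) higher, and their median log2 fold change was −0.40. Elsewhere 5.18% of genes were called lower. Chromosome 8 held 5.43% of the tested genes with 15.4% of those called lower. Each library's median over 491 chromosome 8 genes, as a log2 deviation from the mean of 12 libraries, was 0.29, 0.21 and 0.32 in control and −0.33 to 0.29 in the KO libraries. Atg7 KO replicate 2, at 0.29, lay within the control range, Fip200 KO replicate 3 was at 0.16, and the other 7 KO libraries lay between −0.33 and −0.06.

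The shift ran in blocks along the chromosome. In order of position, 14 stretches of up to 50 genes were formed. All 9 KO libraries were below all 3 control libraries in 6 of them, stretches 1 and 5 to 9, from Insr to Rasa3 and from Tma16 to Bean1. The lowest median log2 fold change was −0.80, in stretch 7 (Med26 to 4930432K21Rik). In stretches 2 and 3, 8 of the 9 KO libraries were below control and Atg7 KO replicate 2 was above it, at 0.79 and 0.66. In stretch 12 (Tmem170 to Zc3h18) the median log2 fold change was −0.36, and 7 of the 9 KO libraries were below control. In stretches 4, 10, 11, 13 and 14 the median log2 fold change was between 0.11 and 0.29. Neighbouring stretches thus differed, with lower stretches next to stretches that were not.

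**Figure D5:**
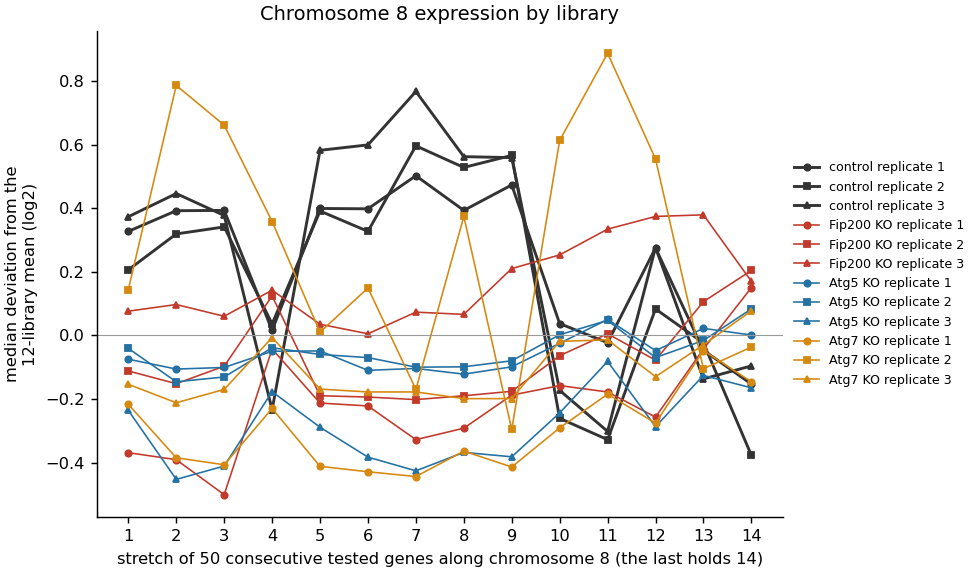
Median log2 deviation from the mean of the 12 libraries (y axis) for 14 consecutive stretches of chromosome 8 genes (x axis), 1 line per library. The 3 control lines run above 0 in stretches 1 to 3, 5 to 9 and 12 and drop in stretches 4, 10 and 11, while Atg7 KO replicate 2 rises to 0.89 in stretch 11.

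With the library-name prefix as a covariate, the counts of lower genes moved by over 1.5 times in further lists, to 3 of 22 for cholesterol synthesis, 6 of 27 for NF-kB and cytokines, 2 of 18 for JAK-STAT3, 3 of 21 for immediate early and AP-1 genes, 1 of 22 for ATF4 targets, 1 of 20 for Nrf2 targets, 2 of 15 for collagens, and 0 by limma for the 11 lymphatic genes, in either direction, and for the 21 genes of LC3 conjugation. With 1 mean per cell population in place of the libraries, 3 genes were called lower for cholesterol synthesis, 2 for MHC class I presentation, 2 for interferon-stimulated genes and 1 for glycolysis and hypoxia, and over all genes 933 were called. The gene lists were also recounted without chromosome 8, a check chosen after seeing the data. The immediate early and AP-1 list kept 2 of 17 genes called lower, Nrf2 targets 1 of 17, lymphatic genes 0 lower of 8 (1 higher, by limma) and the unfolded protein response list 0 of 17. The lysosome list kept 4 of 23, cholesterol synthesis 6 of 20, MHC class I presentation 5 of 12, NF-kB and cytokines 8 of 25, JAK-STAT3 5 of 17, growth factors 4 of 15 and matrix proteases 8 of 17. Genes named here that lie on chromosome 8 were Plat, Il15, Foxc2, Vegfc, Gdf15, Jak3, Nlrc5, Cpe, Jund, Msmo1, Junb, Fgfr1, Tom1, Osgin1, Herpud1, Usp38, Hmox1, Lamp1, Tmem161a, Klf2, Ier2 and, among higher genes, Cdh5. For these genes, the share of the change that belongs to the chromosome and the share that belongs to the pathway cannot be told apart. Vip, Npy, Cck, Mme, Slc6a12, Igf2r, Cdkn1c, Ulbp1 and Sncaip lie on other chromosomes.

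The other chromosomes had medians closer to 0. On chromosome X the median log2 fold change was −0.30, with 7.38% of genes called lower, and 8 KO libraries had medians of −0.233 to 0.078, below the 0.206 to 0.274 of control, while Atg7 KO replicate 2, the KO library with little Xist, was at 0.271. On chromosome 13 the median log2 fold change was −0.24, with 9.23% called lower. On chromosome 3 the library medians of all 9 KO libraries, −0.271 to 0.078, were below those of control, 0.114 to 0.232. On chromosomes 9 and 4 they were above control by a narrow margin. They were at −0.129 to 0.206 against −0.208 to −0.138 on chromosome 9. On chromosome 4 they were at −0.198 to 0.247 against −0.227 to −0.200. The median log2 fold change of the tested genes was −0.21 on chromosome 3, 0.26 on chromosome 4 and 0.22 on chromosome 9.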

How the data were processed

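RNA of 562 cells (3 control samples and 3 of each KO) was sequenced from NEBNext Ultra II Directional libraries. By the study's methods, the authors aligned adapter-trimmed reads with TopHat2, counted them on known transcripts with Bioconductor packages and tested them with edgeR. The genome build, annotation and versions are not given in the sources used here. The authors deposited 1 table per KO against the same 3 control libraries, with RPKM values per library, with no scaling between libraries. Their unit was read from the values, since no header gives it. The tables also hold group means, a signal that the authors computed as reads divided by size factors, and fold changes with p-values from their own test, which were not used. Samples were grouped by their titles.

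The tables were joined on gene ID (14851 genes). Whole reads were recovered for 14831 genes, all that had reads, within 0.01 of a whole number, and the deposited group means were used to set their scale. The 12233 genes that reached 0.5 RPKM in 3 or more of the 12 libraries were tested with limma 3.58.1 in R 4.3.3 on log2(RPKM + 0.5), two-sided, with empirical Bayes moderation along the expression trend, with Benjamini-Hochberg adjustment over all tested genes. The thresholds were those of the study, 0.1 for the adjusted p and 1 for the size of the log2 fold change. Differences among the KO cells were tested by limma's F test in a fit of 4 group means. The scripts were tested on simulated data. The 3 samples of a group are not stated to come from separate editing events, so p-values measure the spread between libraries, which may be technical. No library was a copy of another of its group (chi-square per degree of freedom at least 8.66). That lowest value belonged to Atg5 KO replicates 1 and 2, which were much closer than any other pair of a group (51.4 or more).

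The genes and lists were chosen with earlier results of these data known, and the counts without chromosome 8 were added later. Named were the 3 targeted genes; of the called genes that did not overlap and averaged 2 RPKM or more, the 10 lowest, the 10 highest and the 5 with the smallest adjusted p each way; the 5 most even among the KO cells each way; the 3 called genes with the smallest F test p; and up to 4 called members of each list. Others are said to be named for another reason or complete a list's count. One gene that the rule names is not reported here. Positions came from RefSeq (GRCm38.p6) and were used for chromosome and gene order, for 12218 tested genes, and promoters for 9699. Python 3.11.15, pandas 2.3.3, scipy 1.17.1 and matplotlib 3.10.9 were used. Antisense or overlapping genes could not be resolved from the tables. Alternatives are given in the closing section.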

Additional observations from a re-analysis of the deposited data

Results flagged for a closer look

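In 119 named genes, 10 values of a single library stood apart from the other 8 KO libraries by Dixon's criterion for 9 values, where chance flags about 1 in 20 groups. Fip200 KO replicate 1 was the highest for Col4a6 (3.36 RPKM, others at most 0.822), Il6 (7.28, others at most 1.62) and Vegfc (6.52, others at most 1.08), and the lowest for Tnc (59.2, others at least 150). Fip200 KO replicate 2 was the highest for Gpc6 (0.872 RPKM, others at most 0.160). Fip200 KO replicate 3 was the lowest for Rb1cc1 (2.06 RPKM, others at least 5.18), which is the gene targeted in that library. Atg5 KO replicate 1 was the highest for Lifr (0.271 RPKM, others at most 0.123), replicate 2 for Npy (0.775, others at most 0.184), and replicate 3 the lowest for Tnfaip2 (28.9, others at least 59.1). Atg7 KO replicate 2 was the highest for Il15 (10.8 RPKM, others at most 4.27), a gene of chromosome 8. The median of that library in chromosome 8 stretches 2 and 3 was above that of the control libraries. No link between these observations was tested.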

How the results depend on the processing

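The 1004 genes called against control became 637 with the prefix of the library name (FY, JG or Yang) as a term, 0 within FY (1 control against 3 Fip200 KO libraries, by limma, 377 genes at an unadjusted p under 0.05, smallest adjusted p 0.397), and 1712 within JG (2 control against 2 Atg5 KO libraries). Leaving out 1 library gave 534 to 1199 genes, the lowest without control replicate 2. The other alternatives gave counts within 1.5 times, among them 1354 with limma-voom on recovered reads and 884 without chromosome 8. The F test among KO cells called 2 genes, Foxf2 and Praf2 (named because they are the whole count), with the prefix as a term and 0 to 399 with 1 library left out, the highest without Fip200 KO replicate 3. Genes without overlap, 1626 over all libraries, numbered 3608 without the Fip200 KO libraries, 1853 without Atg5 KO, 2179 without Atg7 KO and 1649 to 2710 with 1 library left out. Within FY, 3 named genes reversed without a call, Cebpd (0.326), Il6 (0.295) and Cldn5 (−0.102), and the cause was not tested. With 1 control library, the FY fit is too small to weigh a lost call or a reversal.

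Replicate numbers did not pair the samples. Deviations of same-numbered libraries correlated between −0.496 and 0.252 over 18 pairs, and 1 of 12 libraries correlated best with its own number. With the replicate number as a block, 965 genes were called and the F test called 0, with 682 genes at an unadjusted p under 0.05. Of 114 called named genes, 62 remained called in every fit that left out 1 library, and 60 of these also with the prefix as a term, not counting 9 further genes that passed the filter on low values through 1 group alone. The fits of list members outside the naming rule were added after seeing the data. The Yang libraries hold no control. Group and edited population coincide, and 3 control libraries of unequal profile limit every fold change given here.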
